A study of Mus musculus with 8 samples.

Results

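The 10 genes described here belong to the amino acid stress response that is run by the transcription factor ATF4: Atf4, Atf5, Ddit3, Trib3, Asns, Psat1, Phgdh, Chac1, Sesn2 and Fgf21. They were chosen by symbol, with earlier results of these libraries known, from the 56953 gene identifiers counted in every library. Whole liver RNA was sequenced from male mice. The 4 control samples have the genotype WT, and the 4 HSC-PCK1-KO samples lack Pck1 in hepatic stellate cells, which store retinoids in healthy liver and lay down collagen after injury. Both groups were adult mice that had eaten CDHFD, a choline-deficient high-fat diet that produces fatty liver and fibrosis, for 8 weeks, so no group on another diet was measured. The labels give 1 batch for all libraries and do not name the promoter that drives the stellate cell deletion. Each library is a whole liver sample in which hepatocytes, which make Pck1 themselves, supply most of the RNA.

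When amino acids run short or unfolded protein builds up, kinases such as GCN2 and PERK phosphorylate the translation factor eIF2. Most translation then slows, while the Atf4 messenger RNA is translated more, so ATF4 activity is set largely at translation and can change with little change in Atf4 mRNA. ATF4 pairs with other bZIP proteins at C/EBP-ATF response elements and switches on genes of amino acid synthesis and uptake, glutathione breakdown and, through Ddit3, cell death. In liver, the same response raises the secreted hormone FGF21, a gene that PPAR-alpha also activates.

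The C/EBP-ATF response element was searched as TGATGNAA, on both strands, in the 250 bases before each RefSeq transcription start, because it is the sequence through which ATF4 reaches its targets. The RefSeq promoter table (build GRCm38.p6) held 12 promoters for all 10 genes, and Asns, Chac1 and Fgf21 had a match. Of all 32851 promoters in the table, 1134 (3.45%) held one. The stretches around the 3 matches are printed here 5′ to 3′ along the gene's strand, with the match in capitals.
Asns: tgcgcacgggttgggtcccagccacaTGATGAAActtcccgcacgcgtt
Chac1: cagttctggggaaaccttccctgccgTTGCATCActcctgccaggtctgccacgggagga
Fgf21: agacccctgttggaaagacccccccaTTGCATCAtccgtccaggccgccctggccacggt
The Asns stretch lies at chr6:7693210-7693258 on the minus strand, with its match at -23 to -16 from the start, on the gene's own strand. The Chac1 stretch lies at chr2:119351023-119351082 on the plus strand, with its match at -193 to -186, on the opposite strand. In Fgf21, at chr7:45615596-45615655 on the minus strand, the match stands at -139 to -132, also on the opposite strand. A match describes the letters only, and promoters without one may hold other forms of the element or hold it elsewhere.

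Libraries held between 44695439 and 49477255 counts. Pck1, the deleted gene, encodes the cytosolic enzyme that starts gluconeogenesis. It stood at 1002, 2012, 551 and 1028 CPM (counts scaled to a common library size) in control replicates 1 to 4 and at 339, 795, 593 and 948 CPM in HSC-PCK1-KO replicates 1 to 4. The groups overlapped, and because hepatocytes make the gene too, these levels cannot show whether stellate cells lost it. The mitochondrial form Pck2, also an ATF4 target, was at 5.57 ± 0.979 CPM (SD, n = 4) in controls, against 5.40 ± 1.03 CPM (SD, n = 4) under HSC-PCK1-KO.

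Across the transcriptome, 0 of 15669 genes tested (0%) differed between genotypes at an adjusted p under 0.05 (edgeR's quasi-likelihood test with Benjamini-Hochberg adjustment). DESeq2, run as an alternative, called 6 genes, none of them one of the 10. At an unadjusted p under 0.05 the quasi-likelihood test took 370 genes (2.36%), 160 higher and 210 lower in HSC-PCK1-KO livers, and 1 of the 10 genes, Atf5, was in that group. The levels of 240 genes (1.53%) did not overlap between genotypes, again with Atf5 as the 1 member. Of the 10 genes, 9 had enough counts to be tested and Phgdh did not. Log2 fold changes, HSC-PCK1-KO minus control, were above 0 for 6 of the 9 and below 0 for 3, with a median of 0.15, beside a median of -0.0055 over all genes tested, of which 48.2% were above 0. In whole liver, fewer cells of a type and less RNA per cell cannot be told apart.

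**Figure D1:**
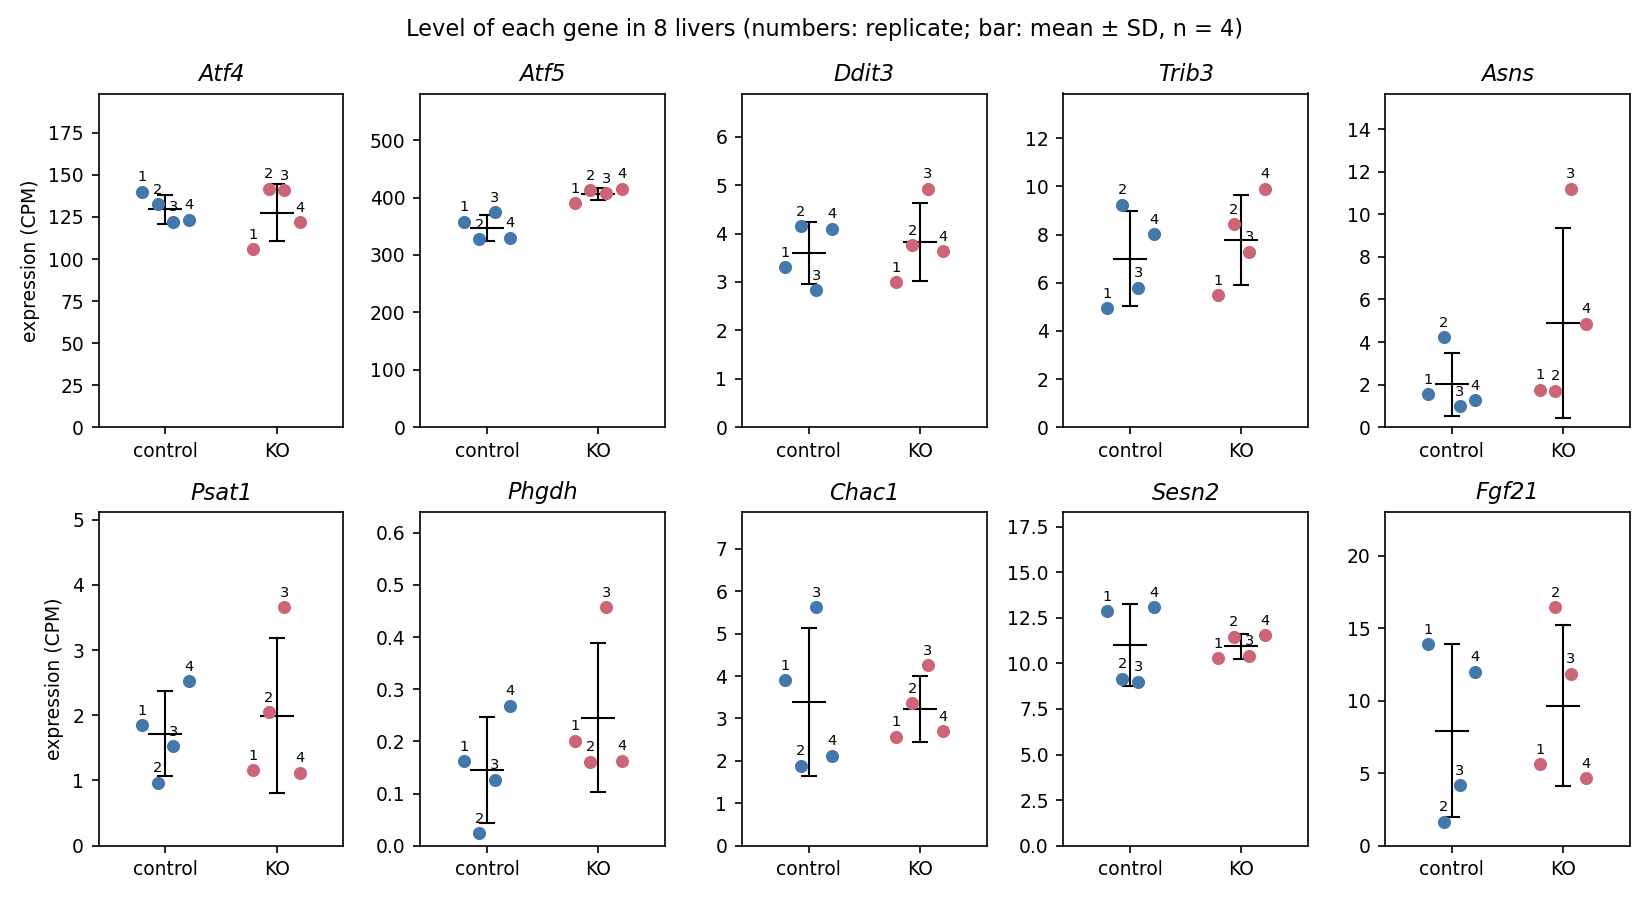
Expression of each of the 10 genes in CPM (vertical axis, starting at 0 in each panel) in 4 control and 4 HSC-PCK1-KO livers (horizontal axis). Each numbered point is 1 library and the bars give mean ± SD; only the Atf5 panel has groups that do not overlap, and Asns and Fgf21 spread widely within both genotypes.

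Atf4 encodes the factor at the head of the response. Its level was 140.0, 132.4, 122.1 and 123.3 CPM in control replicates 1 to 4, and 105.8, 141.7, 141.0 and 122.0 CPM in HSC-PCK1-KO replicates 1 to 4. Both the lowest and the highest library were HSC-PCK1-KO, and the groups overlapped fully. The means were 129.4 ± 8.43 and 127.6 ± 17.2 CPM (SD, n = 4), and the log2 fold change was -0.02 (SE 0.10, 95% interval -0.25 to 0.21).

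Atf5, a close relative of ATF4 that is translated under the same stress and is made at a high level in liver, stood apart from the other 9 genes in separating the genotypes. It was at 358.2, 327.6, 374.3 and 330.1 CPM in control livers and at 390.5, 412.4, 407.7 and 415.2 CPM in HSC-PCK1-KO livers, in replicate order. Every HSC-PCK1-KO library lay above every control library. The group means were 347.5 ± 22.6 and 406.5 ± 11.1 CPM (SD, n = 4), a fold of 1.17, and on the log2 scale the difference was 0.23 (SE 0.078, 95% interval 0.054 to 0.40). This difference did not pass adjustment over all genes, and the list was chosen with it known. Atf5 overlaps Nup62 (12.3 CPM) and Il4i1 (0.949 CPM) on the opposite strand. The library kit marks strand, but the strand setting used in counting is not given in the sources used here, so a share of reads from these genes cannot be told apart from Atf5.

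Ddit3 encodes CHOP, the factor through which prolonged stress leads to cell death. In control livers it measured 3.31, 4.15, 2.83 and 4.10 CPM, and in HSC-PCK1-KO livers 2.99, 3.76, 4.92 and 3.64 CPM. Low and high libraries were found in both groups, with the highest in HSC-PCK1-KO replicate 3. Its log2 fold change was 0.09 (SE 0.18, 95% interval -0.32 to 0.50). Ddit3 shares its locus with Mars on the opposite strand (74.7 CPM), a far more abundant transcript, so the same limit on strand applies.

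Trib3, a pseudokinase that binds AKT and feeds back on ATF4 and CHOP, was at 4.95, 9.25, 5.79 and 8.02 CPM in controls and 5.47, 8.43, 7.29 and 9.90 CPM in HSC-PCK1-KO livers. The groups overlapped, and control replicate 2 and HSC-PCK1-KO replicate 4 were the high libraries of their groups. The log2 fold change was 0.15 (SE 0.23, 95% interval -0.36 to 0.66).

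Among the genes of amino acid synthesis, Asns was the most variable. Its product, asparagine synthetase, makes asparagine from aspartate and glutamine. Asns stood at 1.54, 4.22, 0.993 and 1.26 CPM in control replicates 1 to 4, and at 1.76, 1.71, 11.2 and 4.86 CPM in HSC-PCK1-KO replicates 1 to 4. In each genotype some libraries were low and others high: control replicate 2 and HSC-PCK1-KO replicates 3 and 4 lay above the remaining 5 libraries. The highest library was 11.3 times the lowest, and the coefficient of variation over all 8 libraries was 99.9%, where counting error alone would give 7.81%. Means were 2.01 ± 1.49 CPM in controls and 4.88 ± 4.46 CPM under HSC-PCK1-KO (SD, n = 4), which on the log2 scale was a difference of 1.30 (SE 0.74, 95% interval -0.44 to 3.03). Without HSC-PCK1-KO replicate 3 it was 0.48, and without control replicate 2 it was 1.95.

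Psat1 and Phgdh encode consecutive enzymes that make serine from a glycolytic intermediate, a route that normal liver expresses at a low level. Psat1 was at 1.85, 0.967, 1.52 and 2.53 CPM in controls and 1.16, 2.05, 3.66 and 1.12 CPM in HSC-PCK1-KO livers. Its groups overlapped, with HSC-PCK1-KO replicate 3 the highest library. The log2 fold change of Psat1 was 0.21 (SE 0.42, 95% interval -0.73 to 1.16), and it was -0.44 without control replicate 2 and HSC-PCK1-KO replicate 3. Phgdh, the first enzyme of the route, had only 8, 1, 6 and 14 counts in controls and 9, 8, 22 and 8 counts in HSC-PCK1-KO livers. All libraries but HSC-PCK1-KO replicate 3 lay at or under the level of control replicate 4. Its highest count, 22, has a 95% Poisson interval of 13.8 to 33.3, which covers counting error only. Phgdh was uncertain for a second reason, since 28.1% of the 100-base windows of its transcripts also occur in transcripts of other genes, most of them predicted genes.

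Chac1, a glutathione-degrading enzyme switched on by ATF4 and CHOP, was at 3.90, 1.89, 5.62 and 2.13 CPM in controls and 2.57, 3.36, 4.26 and 2.70 CPM in HSC-PCK1-KO livers. All HSC-PCK1-KO libraries fell within the range of the controls. Its log2 fold change was -0.07 (SE 0.34, 95% interval -0.84 to 0.70), and leaving out control replicate 3 gave 0.29.

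Sesn2 encodes a leucine sensor that holds mTORC1 back. Levels were 12.9, 9.15, 9.0 and 13.1 CPM in controls and 10.3, 11.5, 10.4 and 11.5 CPM in HSC-PCK1-KO livers. Again the HSC-PCK1-KO libraries lay inside the control range, and the log2 fold change was -0.01 (SE 0.14, 95% interval -0.32 to 0.29).

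Fgf21, the hormone gene, measured 13.9, 1.65, 4.16 and 12 CPM in controls and 5.63, 16.4, 11.9 and 4.65 CPM in HSC-PCK1-KO livers. Each genotype had a pair of high and a pair of low libraries: control replicates 1 and 4 and HSC-PCK1-KO replicates 2 and 3 were high. The highest library was 9.95 times the lowest. Means of 7.93 ± 5.94 and 9.64 ± 5.54 CPM (SD, n = 4) gave a log2 fold change of 0.28 (SE 0.71, 95% interval -1.39 to 1.95), which was -0.17 without control replicate 2 and HSC-PCK1-KO replicate 3 and 0.69 without control replicate 1.

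**Figure D2:**
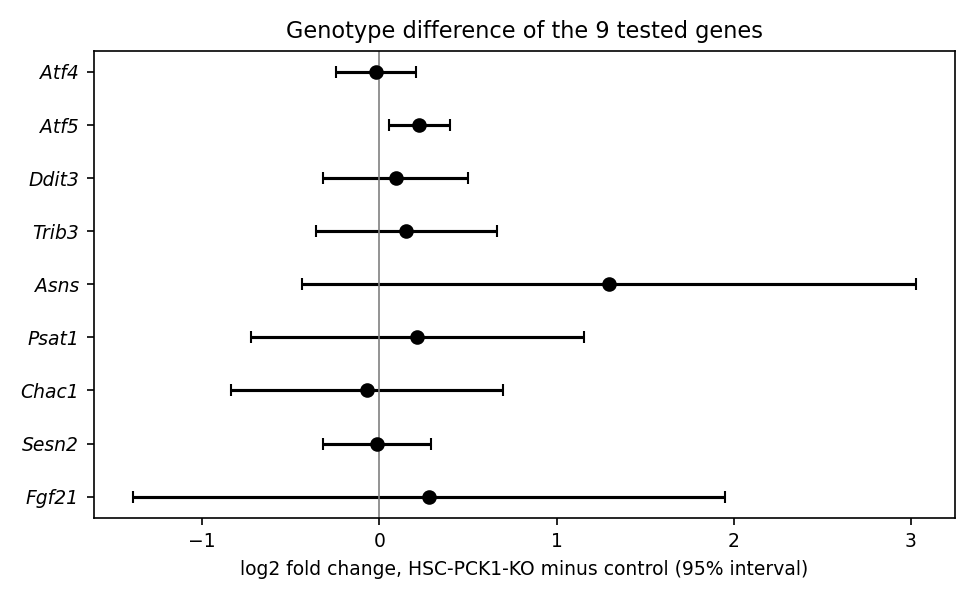
Log2 fold change (horizontal axis, HSC-PCK1-KO minus control) of the 9 genes tested (vertical axis), with 95% intervals from the fit over all 8 libraries. The interval of Atf5, 0.054 to 0.40, is the 1 that does not reach 0, and those of Asns and Fgf21 are the widest.

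How closely the data bound a genotype difference varied over the genes. The 95% interval stayed within 1.5-fold in either direction for 4 of the 9 tested genes (Atf4, Atf5, Ddit3 and Sesn2) and within 2-fold for 6, which adds Chac1 and Trib3. Asns, Psat1 and Fgf21 could differ by more than that in these data.

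On a scale of CPM per kilobase of exon, which allows levels of different genes to be compared, Atf5 was highest at 189.2 and Atf4 next at 54.5. Fgf21 followed at 9.24. Trib3 at 3.48 and Sesn2 at 3.16 were close to each other, as were Ddit3 at 2.17 and Chac1 at 2.02, and in each of these pairs the CPM values spread over libraries by more than the gap between the genes. Asns at 1.26, Psat1 at 0.436 and Phgdh at 0.079 were lowest. The 3 enzymes of asparagine and serine synthesis were thus the least abundant of the 10, and the 2 factors Atf4 and Atf5 the most abundant.

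Abundant and scarce genes also differed in spread. The coefficient of variation over all 8 libraries was 9.79% for Atf4 and 9.43% for Atf5, near the median of 9.56% for genes at 100 CPM or more. Sesn2 had 14.0%. Ddit3 at 18.4%, Trib3 at 24.7%, Chac1 at 37.9%, Psat1 at 48.4% and Asns at 99.9% lay above the median of 15.8% for genes between 1 and 10 CPM. Fgf21, with a mean in that range, had 61.4%.

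The genes did not share 1 order of the libraries. Asns was high in control replicate 2, where Atf5, Chac1, Fgf21, Psat1 and Phgdh were at their lowest. That library also had the lowest total of all libraries, 44695439 counts, and the fewest identifiers with any count, 22013. It differed from control replicate 1 by more than any other pair of the same genotype did. In HSC-PCK1-KO replicate 3, Asns, Ddit3, Psat1 and Phgdh were all at their highest, whereas Trib3, Atf5 and Sesn2 were not.

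**Figure D3:**
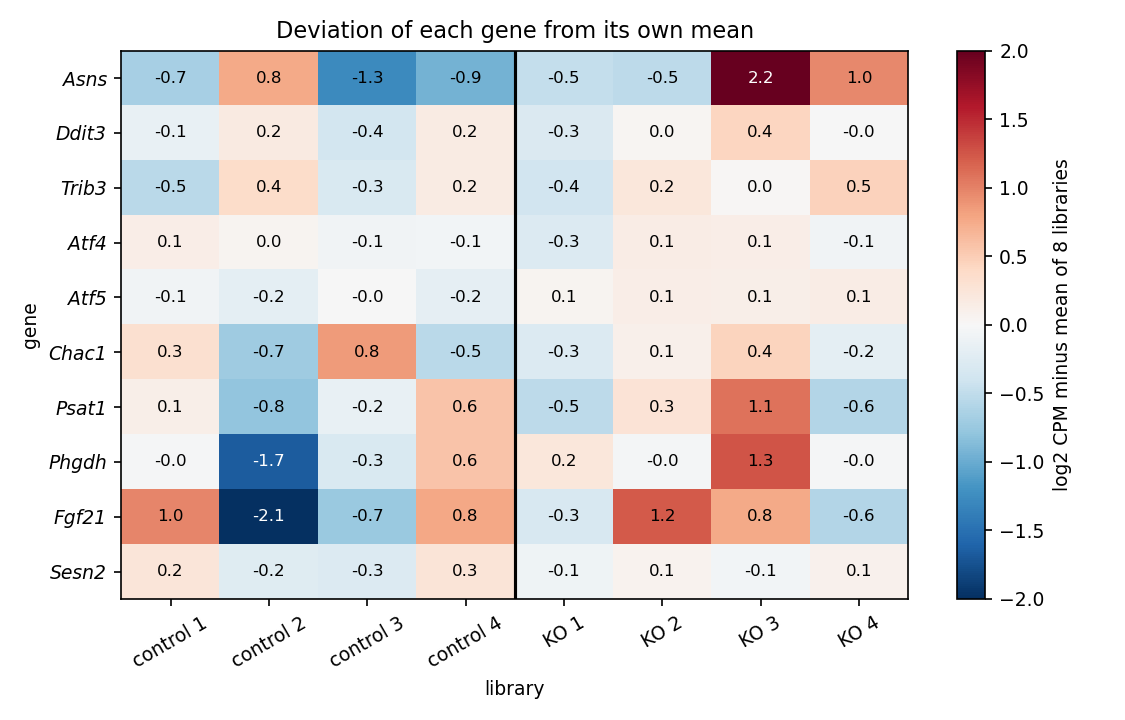
Each gene's log2 CPM minus its mean over the 8 libraries (colour and printed value), with genes on the vertical axis and libraries on the horizontal axis. Asns is above its mean in control 2, KO 3 and KO 4, while Fgf21 is above its mean in control 1, control 4, KO 2 and KO 3.

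Correlations of log2 CPM over the 8 libraries were computed for all 45 pairs of the 10 genes, with exact two-sided permutation tests adjusted over the 45. Pearson's r was above 0 for 33 pairs and below 0 for 12, with a median of 0.25. No pair passed adjustment (smallest adjusted p 0.365, and 0.935 for Spearman's rho), 5 had an unadjusted exact p under 0.05 by Pearson's r, and 0 had one by Spearman's rho. The widest steps in Asns, from 1.76 to 4.22 CPM and from 4.86 to 11.2 CPM, were alike in ratio, so its levels were not treated as separate clusters.

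Psat1 and Phgdh, the serine pair, had r = 0.79 (exact permutation p = 0.0171) and rho = 0.62 (exact p = 0.115). Without the 2 libraries farthest from the median, the same for both genes, r was 0.40, so the relation rests on those libraries. Psat1 and Fgf21 had r = 0.78 (exact p = 0.0201) and rho = 0.71 (exact p = 0.0576), and r was 0.80 without the 2 libraries farthest on Psat1 and 0.76 without those farthest on Fgf21. Phgdh and Fgf21 had r = 0.75 (exact p = 0.0338) and rho = 0.38 (exact p = 0.360), and r was 0.35 without the 2 libraries farthest on Phgdh and 0.59 without those farthest on Fgf21. For Fgf21 and Sesn2, r was 0.74 (exact p = 0.0369) and rho 0.69 (exact p = 0.0694), with 0.68 without the 2 farthest on Fgf21 and 0.73 without those on Sesn2. Asns was closest to Ddit3, with r = 0.73 (exact p = 0.0405) and rho = 0.57 (exact p = 0.151), and r = 0.56 without the 2 libraries farthest on Asns. Without the 2 farthest on Ddit3 it was 0.25, so this relation too rests on a few libraries. All of these have an adjusted p of at least 0.365.

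Asns, Chac1 and Fgf21, the genes whose promoters hold the element printed above, showed no steady relation over the 8 libraries. Asns had r = -0.11 with Chac1, but -0.68 without the 2 libraries farthest on Asns and 0.50 without the 2 farthest on Chac1. With Fgf21, Asns had r = -0.15, and -0.58 and 0.16 without the 2 farthest on Asns and on Fgf21. Chac1 had r = 0.34 with Fgf21, and 0.45 and -0.14 without the 2 farthest on Chac1 and on Fgf21. The 8 libraries cannot settle whether these genes vary together. Atf4 mRNA had r = 0.32 with Asns and r = 0.39 with Fgf21. Asns and Trib3 had r = 0.47.

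**Figure D4:**
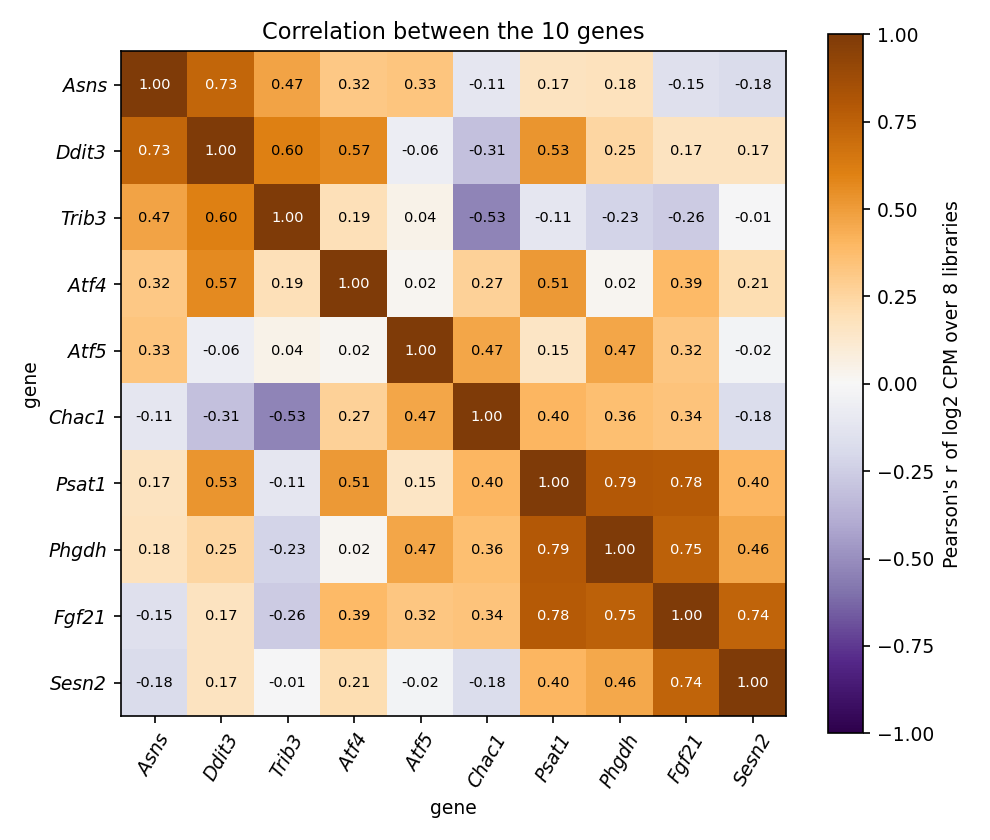
Pearson's r of log2 CPM over the 8 libraries for every pair of the 10 genes (both axes), as colour and printed value. The block of Psat1, Phgdh and Fgf21 holds values of 0.75 to 0.79, and Asns has its highest value, 0.73, with Ddit3.

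The search for genes that vary with Asns was widened to 207 genes, the other 8 tested members and the 199 tested genes of 17 lists around the ATF4 pathway. By exact permutation tests adjusted over the 207, 0 genes passed by Pearson's r (smallest adjusted p 0.983) or by Spearman's rho. At an unadjusted exact p under 0.05, 9 passed by r and 1, Amt, by rho (0.76). These counts are no more than that threshold alone would let through on average. The highest values were those of Slc7a5, the light, transporting subunit of the leucine transporter LAT1 (r = 0.80, and 0.76 without HSC-PCK1-KO replicates 3 and 4), the arginine sensor gene Castor2 (0.78), the Tribbles gene Trib1 (0.76) and glutamine synthetase, Glul (0.75). Hspa1a, an inducible heat shock gene, had r = 0.73 with all libraries and -0.08 without HSC-PCK1-KO replicates 3 and 4. The lowest values were those of Fkbp5 (r = -0.79) and Cpt1a (r = -0.74).

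Over all genes with a mean of at least 1 CPM, the most like Asns in log2 CPM over 8 libraries were Sertad1 (r = 0.977), Rogdi (0.973), Snap23 (0.952), Spcs3 (0.950), Ccnd3 (0.942), Mup9 (0.918), Dcaf12 (0.914), Smyd2 (0.906), Serp1 (0.899) and Piga (0.898). Mup9 belongs to the major urinary protein family of near-identical copies, so its counts are uncertain. The most opposite were Hexdc (-0.969), Tmem94 (-0.955), Zc3h13 (-0.947), Ces2h (-0.939) and Snx25 (-0.935). These are the ends of a ranking of 11574 genes and carry no test. None of the other 8 members in that ranking reached either end, and Phgdh, below 1 CPM, was not ranked.

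The genes around ATF4 were described by the same 17 lists, of 203 genes, of which 199 were tested. None of the 199 passed adjustment, as none did over all genes. Log2 fold changes were above 0 for 90 and below 0 for 109, with a median of -0.022. At an unadjusted p under 0.05 there was 1 gene, Bmt2 (0.503%, below the 2.36% of all genes tested). Bmt2 encodes SAMTOR, a sensor of S-adenosylmethionine upstream of mTORC1. Its means were 7.78 CPM in controls and 9.35 CPM in HSC-PCK1-KO livers, a log2 fold change of 0.27 (SE 0.095). Bmt2 was also the 1 listed gene whose groups did not overlap, beside 1.53% of all genes tested.

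Upstream, the 14 genes of the eIF2 kinases, the eIF2 phosphatase and eIF2B had 5 values above 0 and 9 below, with a median of -0.048. Eif2ak4, the kinase GCN2 that senses uncharged tRNA, had -0.16 (SE 0.10), and its activator Gcn1l1 had -0.23 (SE 0.11). Among 10 bZIP partners of ATF4 the split was 6 to 4, with a median of 0.011, and Cebpa, a hepatocyte factor, had -0.09 (SE 0.14).

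In amino acid metabolism, 14 enzymes of serine, glycine and folate one-carbon metabolism had 8 values above 0 and 6 below, with a median of 0.027. Shmt2, which converts serine to glycine in mitochondria, had -0.12 (SE 0.075). The 13 other enzymes of amino acid synthesis and breakdown split 9 to 4 (median 0.010). All but 4 of 20 cytosolic tRNA synthetases, which charge tRNA with amino acids and include several ATF4 targets, were below 0, with a median of -0.053 and single values between -0.17 and 0.066. Without control replicate 2 their median was 0.014. Of 14 tested amino acid transporters, 5 were above 0 and 9 below (median -0.095), with Slc38a1 at -0.34 (SE 0.24), Slc38a2 at -0.20 (SE 0.13) and Slc38a3 at -0.24 (SE 0.14). These are carriers of glutamine and other small neutral amino acids.

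Downstream, 13 of 19 other stress targets of ATF4 or CHOP were above 0 (median 0.101), among them the translation inhibitor Eif4ebp1 at 0.14 (SE 0.093), while the angiogenic factor Vegfa had -0.19 (SE 0.10). Without control replicate 2 and HSC-PCK1-KO replicate 3 the median of this list was -0.025. The 19 chaperones and other genes of the endoplasmic reticulum stress response, which the sister branches IRE1 and ATF6 drive, had 1 value above 0 and 18 below, with a median of -0.084. Hspa5, the chaperone BiP, had -0.23 (SE 0.16) and Creld2 -0.32 (SE 0.20). Without control replicate 2 that median was -0.011. Among 6 glutathione genes 4 were above 0, led by Gclc, the limiting enzyme of glutathione synthesis, at 0.25 (SE 0.13). Mitochondrial stress genes (9, median 0.001) and amino acid sensors upstream of mTORC1 (17, median -0.017) lay near 0.

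Ppara, whose product also activates Fgf21, and its targets had 9 of 12 values above 0, with a median of 0.075. The thioesterase gene Acot1 had 0.40 (SE 0.22). Without HSC-PCK1-KO replicate 2 the list median was -0.071. Of 10 fasting and glucocorticoid genes 8 were below 0 (median -0.153), including Pck1 at -0.78 (SE 0.44), the clock gene Per1 at -0.71 (SE 0.37) and glucose-6-phosphatase, G6pc, at -0.54 (SE 0.27). The 8 p53 targets had 6 values above 0 (median 0.109), and 6 of 7 immediate early and heat shock genes were above 0 (median 0.067). The 5 FGF21 receptor genes (median -0.106) had 4 values below 0, and the 5 genes of the Tribbles family and AKT (median -0.001) had 3.

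**Figure D5:**
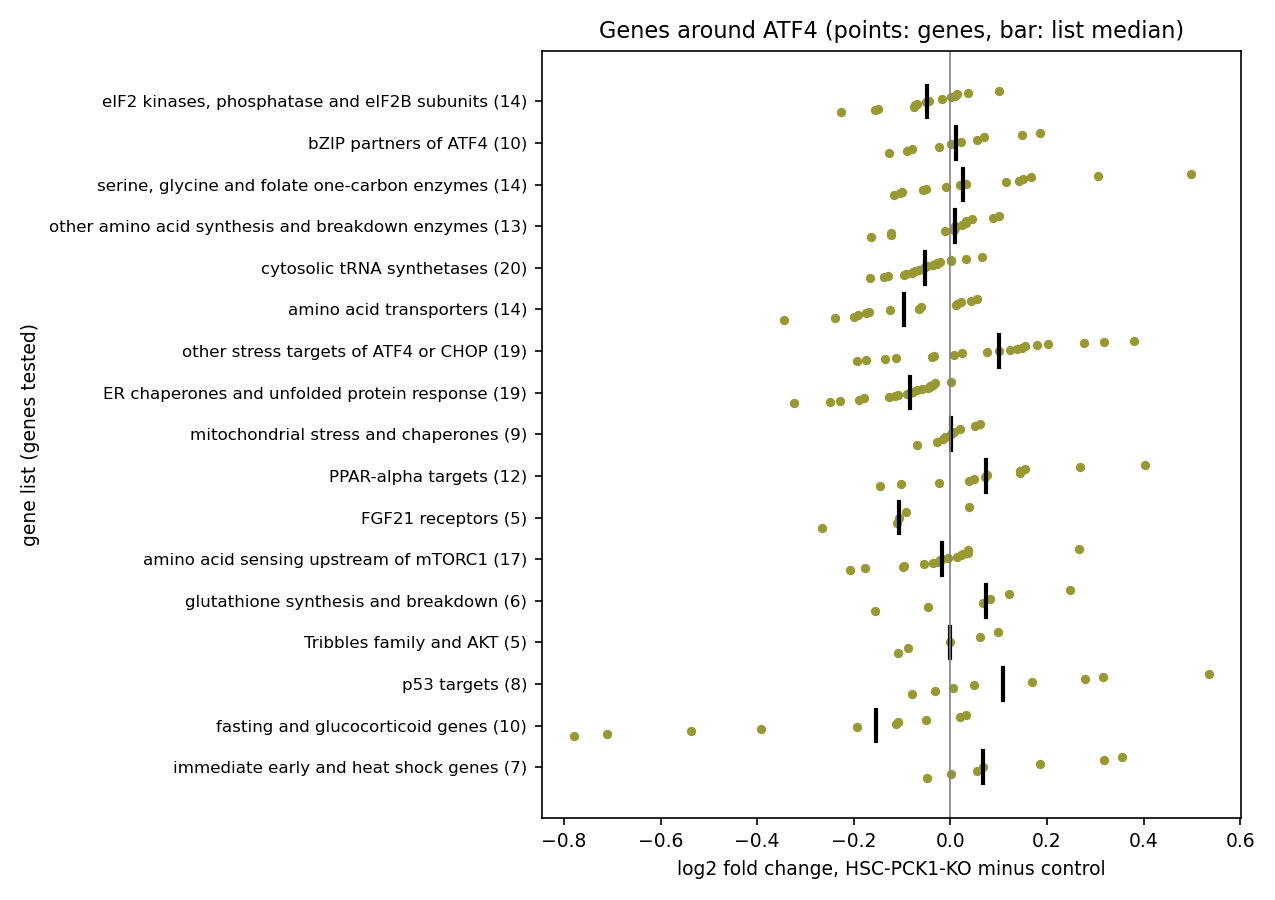
Log2 fold change (horizontal axis, HSC-PCK1-KO minus control) of the tested genes of 17 lists around ATF4 (vertical axis). Points are genes and bars list medians, which run from -0.153 for fasting and glucocorticoid genes to 0.109 for p53 targets.

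Markers of the cell types that a liver sample can hold were summed in each library. No marker of the 13 types passed the test between genotypes. Hepatocyte markers summed to 84750 to 106912 CPM in controls and 82479 to 101879 CPM in HSC-PCK1-KO livers, so the tissue label fits its defining markers. Quiescent stellate cell markers summed to 249.6 to 278.5 and 221.5 to 258.2 CPM, activated stellate cell markers to 75.5 to 209.9 and 63.1 to 127.4 CPM, and recruited macrophage markers to 93.3 to 347.1 and 169.1 to 209.0 CPM. Of the 13 types, only the mesothelial markers had sums that did not overlap between genotypes. These were 4.18 to 10.4 CPM in controls and 2.03 to 3.74 CPM in HSC-PCK1-KO livers, and include Krt19, which is also on the cholangiocyte list. The Atf5 groups did not overlap in the other direction. Among single genes tested, 1.53% did not overlap. The part of mesothelial cells in the Atf5 difference was not tested. Exocrine pancreas, a tissue with high Asns, was at 0.142 to 0.401 CPM in controls and 0.134 to 0.282 CPM in HSC-PCK1-KO livers over its 11 markers, of which 7 (Cel, Clps, Cpb1, Pnlip, Prss2, Try4 and Try5) were at 0 in every library. No list sum passed adjustment in its correlation with Asns over the libraries, where r ranged from -0.52 for hepatocytes to 0.25 for sinusoidal endothelial cells (exact permutation p at least 0.184, adjusted p at least 0.806 over 26 relations).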

How the data were processed

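The authors deposited raw counts per gene and library, whole numbers that had not been normalized. The build was, per the submitters' processing notes, GRCm39, and R 4.3.2 was used. Which aligner, counter, annotation release and strand option were used was not given in the sources used here. GENCODE M21 (GRCm38) gave symbols by identifier: it named 52029 of 56953 identifiers, and because the builds differ no coordinates go with the counts. The labels call the samples biological replicates, and each title carries its own number in brackets, which is not said to name a mouse. A p-value therefore measures only the spread between samples, whose technical share is not known. No 2 libraries of the same genotype agreed within sampling noise.

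Counts were analysed in R 4.3.3 with edgeR 4.0.16: filterByExpr, TMM factors and a robust quasi-likelihood test with genotype as the only term, Benjamini-Hochberg adjustment over 15669 genes and a threshold of 0.05. CPM used TMM-scaled library totals, and log2 CPM used a prior count of 2. The test was tried on simulated data first. The 10 genes, the lists and the tests were chosen with earlier results of these data known. Named from each list were the 3 genes with the smallest p and the 2 with the highest r with Asns, and from all genes at 1 CPM or more the 10 most like Asns and the 5 most opposite, predicted genes left out; not all are printed. Other genes were named after their values were seen. The alternatives tried were RLE and upper quartile scaling, no filter, 1 CPM in 4 libraries, DESeq2 1.42.0, voom with sample weights in limma 3.58.1, the replicate block, another prior count (0.5), and leaving out each library or control replicate 2 with HSC-PCK1-KO replicate 3.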

Additional observations from a re-analysis of the deposited data

Results flagged for a closer look

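Within each genotype the highest and lowest library of every gene was compared with its neighbours. Of 20 groups of 4 libraries, 2 had a library whose gap to the nearest other, divided by the group's range, was above 0.829. Chance gives about 1 in 20 such groups, so 1 was to be expected. Control replicate 2 stood at 4.22 CPM of Asns, apart from the other 3 controls (gap over range 0.830, at the limit). HSC-PCK1-KO replicate 3 stood at 0.457 CPM of Phgdh (gap over range 0.864), a level that rests on 22 counts.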

How the results depend on the processing

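The count of genes differing between genotypes, 0 with edgeR, was 6 with DESeq2, 0 with the replicate block, and 0 to 1 when single libraries were left out (1 without control replicate 1). The replicate numbers are not said to pair mice, and deviations of same-numbered libraries correlated at -0.033, -0.329, -0.059 and 0.058. No other alternative run gave a gene past adjustment. Without a filter on low counts, 686 genes had an unadjusted p under 0.05 in place of 370. The members' median of 0.15 lay between -0.061 (without control replicate 2 and HSC-PCK1-KO replicate 3) and 0.243. Of the 9 tested members, Asns, Atf5 and Trib3 kept a positive sign in all 16 alternatives, over 0.48 to 1.95, 0.197 to 0.269 and 0.015 to 0.343. With the replicate block Asns was at 1.08. The other 6 changed sign in at least 1 of the 16. Counts set little limit on Asns or Fgf21, whose spread between libraries far exceeds counting error, but they do limit Phgdh, with 1 to 22 counts a library. Atf5 kept its unadjusted p under 0.05 in every alternative but the one without control replicate 2 and HSC-PCK1-KO replicate 3. These runs reuse the same libraries, and the list was chosen with this difference known, so they are no further test of it. In the main fit Atf5 did not pass adjustment over all genes.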

Other observations

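Fgf21 varied 9.95-fold between livers, with high and low libraries in both genotypes, and its relations to the 207 genes around ATF4 were computed after these values were seen. By exact permutation tests over the 8 libraries, adjusted over the 207, 1 gene passed by Pearson's r, Slc38a3, which encodes the glutamine, histidine and asparagine carrier SNAT3. That adjustment does not cover the choice of Fgf21, and the share of all genes with as strong an r is not given here. Slc38a3 stood at 1761, 2643, 2390 and 1838 CPM in control replicates 1 to 4 and at 1879, 1663, 1852 and 1916 CPM in HSC-PCK1-KO replicates 1 to 4. The libraries fell in exactly the reverse order of Fgf21. The correlation was r = -0.91 (exact permutation p = 2.48e-05, the smallest that 8 libraries allow, adjusted p = 0.00513) and rho = -1 (adjusted p = 0.0103). It was r = -0.73 without the 2 libraries farthest from the median of Fgf21, and r = -0.94 on deviations from the genotype means. Leaving out single libraries gave r between -0.95 and -0.79, each passing adjustment. The order stays exactly reversed whichever library is left out, so these passes follow largely from that order and are no further test. In place of 1 gene, 2 passed without control replicate 1 or without HSC-PCK1-KO replicate 2. Mthfd1l, a mitochondrial one-carbon enzyme, passed by rho (0.976, exact adjusted p = 0.0411) and not by r (0.82, exact adjusted p = 0.0539). Cdkn1a had an r of larger size than Slc38a3 (0.913 against -0.908) and did not pass (exact adjusted p = 0.229).

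By list, r with Fgf21 was above 0 for 16 of 19 other stress targets of ATF4 or CHOP (median 0.38). It was above 0 for 10 of 12 genes of the PPAR-alpha list, which holds Ppara itself (median 0.60). The counts were 7 of 8 for p53 targets (median 0.50) and 8 of 10 for bZIP partners (median 0.49). Among chaperones and other genes of the endoplasmic reticulum stress response, 2 of 19 were above 0 (median -0.39). Over all 207 genes, 104 were above 0 and the median was 0.005.

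Among all genes at 1 CPM or more, those most like Fgf21 over the 8 libraries were Limk1 (r = 0.985), the mitotic genes Kif23 (0.980), Tpx2 (0.979) and Top2a (0.976), the PPAR-alpha target Pex11a (0.973), and, further down, the lipid droplet gene Cidec (0.970). Most opposite to Fgf21 were Serpinf2 (-0.995), Fggy (-0.977, rho = -1), Elac1 (-0.972), Nfix (-0.960) and Slc22a7 (-0.959). Each of these had an r further below 0 than Slc38a3. Cidec was at 30.9, 1.77, 10.5 and 31.7 CPM in control replicates 1 to 4 and at 6.10, 40.2, 28.7 and 8.31 CPM in HSC-PCK1-KO replicates 1 to 4. Cidec made up most of the summed adipocyte markers, which had r = 0.97 with Fgf21 (exact adjusted p = 0.0587 over 26 relations) while the adipocyte gene Lep was at 0 in every library. Sums of cholangiocyte, recruited macrophage and activated stellate cell markers had r of 0.73, 0.71 and 0.70 with Fgf21 (exact adjusted p = 0.351 each), and their part in the spread of Fgf21 was not tested. These relations are not tests of a genotype difference and were all picked after the data were seen.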
